A study of Mus musculus with 6 samples.

Results

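The sequences described here are those of miR-21 in the exosomes of RAW264.7 cells, a mouse macrophage line. They were found by name: after the species prefix and the suffix that gives the change of ends were dropped, 3 of the 2731 rows of the deposited table read miR-21-5p or miR-21-3p. These rows are 3 of 2704 distinct sequences, of which 533 carry a microRNA name. A first group of libraries came from cells kept on titanium disks with small-scale topography, made by sandblasting, acid etching and an alkali thermal reaction, and labelled micro-/nano- by the submitters (3 libraries). They were set against libraries from cells on polished, smooth titanium disks (3 libraries). Both groups were grown in medium labelled as free of exosomes, and exosomes were collected from the culture supernatant by ultracentrifugation. Whether the 3 libraries per group are separate cultures is not stated, and a p-value here reflects the spread of these libraries alone, which could be technical.

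miR-21 is a microRNA found in nearly all tissues and is abundant in macrophages, where STAT3, AP-1 and NF-κB signaling raise its transcription. Its primary transcript is cut by Drosha and then by Dicer, and of the resulting duplex the 5p strand, the guide, is kept by Argonaute while the 3p strand, the passenger, is mostly lost. The guide represses PDCD4 and Sprouty messages, and in macrophages lower PDCD4 goes with more IL-10. An isomiR is a variant of a mature microRNA with shifted ends or a changed base, and a shift of the 5′ end changes the seed, the bases 2 to 8 that pair with targets.

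The 3 listed sequences are shown because their ends and seeds set them apart, with the seed in capitals.
rno-miR-21-5p: tAGCTTATcagactgatgttga
mdo-miR-21-5p_L+2: aATAGCTTatcagactgatgttga
rno-miR-21-3p_R-2: cAACAGCAgtcgatgggctg
The first is the guide. Although its name is that of the rat, it is identical to the 22 bases of mouse miR-21a-5p in RefSeq (GRCm38), at positions 86584120 to 86584141 of the minus strand of chromosome 11. The last is the passenger. It starts at the reference base of mouse miR-21a-3p and ends 2 bases before its 3′ end, on chromosome 11 from 86584084 to 86584103. The second, which was given an opossum name, is the guide with 2 more bases at its 5′ end. The base next to the guide is that of the mouse hairpin, but the outermost is not: counted from the 5′ end of the isomiR, the mouse hairpin and the listed sequence differ by G1A.

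The Mir21a hairpin lies on chromosome 11 of GRCm38 from 86584067 to 86584158 and, in the GENCODE M21 annotation, within the 3′ untranslated part of exon 12 of Vmp1, on the same strand. The guide and the passenger matched transcripts of Mir21a and Vmp1 and of no other annotated gene, whereas the 5′ extended isomiR matched none exactly. The build that the authors used is not given in the sources used here. Further mouse genes carry the related miR-21b and miR-21c, and their mature sequences in RefSeq (GRCm38.p6) show how far they are from the guide, again with the seed in capitals.
mmu-miR-21b: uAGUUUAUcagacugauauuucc
mmu-miR-21c: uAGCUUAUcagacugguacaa
Of the bases compared from the 5′ end, miR-21b, on chromosome 3 from 29636768 to 29636790, differs from the guide at 4 of 22, and its seed differs by C4T (guide base first, in DNA letters). miR-21c, on chromosome 8 from 128278188 to 128278208, differs at 5 of 21 but has the same seed. Neither was listed in the table used here, and no other listed sequence had the seed of the guide, of the passenger or of the 5′ extended isomiR.

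The guide was the most abundant sequence in each of the 6 libraries. The unit is the authors' normalized value, a signal per sequence and library that is not a count. The guide stood at 80533, 126031 and 128178 in small-scale topography replicates 1 to 3, against 118082, 130524 and 94483 in smooth replicates 1 to 3. The lowest value belonged to a small-scale topography library and the highest to a smooth one, and the groups overlapped. As a share of the normalized total over distinct sequences, the guide held 38.2%, 44.98% and 46.1% on small-scale topography, against 43.4%, 46.4% and 40.3% on smooth disks. Small-scale topography replicate 1 and smooth replicate 3 had the lowest shares and also the lowest normalized totals, 210677 and 234407, against 272331 to 281542 in the other 4 libraries. The share averaged 43.1% ± 4.24 on small-scale topography, against 43.3% ± 3.03 on smooth disks (SD, n = 3 each). This difference of -0.26 percentage points was smaller than either SD (exact permutation test, two-sided, p = 0.9, where 0.1 is the smallest this design allows). As these are shares of a library, they give neither the number of exosomes nor the amount of miR-21 per exosome.

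**Figure D1:**
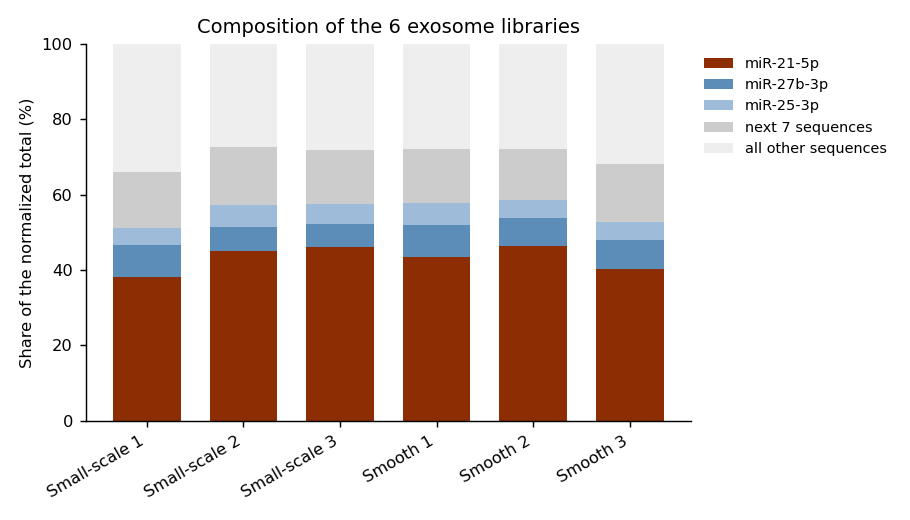
Stacked shares of the normalized total (%, vertical axis) in the 3 small-scale topography libraries and the 3 smooth libraries, for the 3 most abundant sequences, the next 7 and all others. miR-21-5p takes from 38.2% to 46.4% of each library, and miR-27b-3p is the next sequence in all 6.

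The sequence next to it in every library was miR-27b-3p, a microRNA with roles in lipid metabolism and in the vasculature. The guide was 4.57, 6.95 and 7.36 times as abundant as miR-27b-3p in small-scale topography replicates 1 to 3, against 5.00, 6.32 and 5.18 times in smooth replicates 1 to 3. The ratio averaged 6.29 ± 1.51 on small-scale topography, against 5.50 ± 0.716 on smooth disks (SD, n = 3 each, exact permutation test, two-sided, p = 0.4). The groups overlapped, and small-scale topography replicate 1 had the lowest ratio of all. All named sequences other than miR-21 held together 48.6% ± 3.13 of the signal on small-scale topography, against 50.3% ± 0.973 on smooth disks. Candidate sequences without a microRNA name held the rest, 8.32% ± 1.81 of the signal on small-scale topography, against 6.36% ± 2.59 on smooth disks (SD, n = 3 each). Over the 6 libraries the guide averaged 43.2%, and the next 9 sequences, miR-27b-3p, miR-25-3p, let-7b-5p, let-7i-5p_R-1, PC-5p-146_13157, miR-532-5p_1ss20TC, miR-378a-3p, miR-27a-3p_R-1 and let-7c-5p, averaged 7.48% down to 1.53%.

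The share of the guide varied little between libraries, but its normalized value varied more. Over the 6 libraries the SD was 7.64% of the mean for the share, against 18.3% of the mean for the normalized value. Among the 95 named sequences that were listed in all 6 libraries with a mean normalized value of at least 100, the SD of the log2 share within groups was 0.13 for the guide, against a median of 0.32 and a range of 0.11 to 0.86. Only 3 of these sequences had a smaller SD. A sequence that fills so much of a library is a large part of its own denominator, which narrows the spread of its share, and the part of this in the rank was not tested.

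The passenger was far less abundant. rno-miR-21-3p_R-2 had normalized values of 72.0, 55.9 and 74.6 in small-scale topography replicates 1 to 3, against 95.8, 117 and 54.2 in smooth replicates 1 to 3. Smooth replicate 2 had the most and smooth replicate 3 the least of the 6 libraries, so the range of the smooth libraries enclosed that of the others. Most values of a library are whole multiples of 1 step, read here as the worth of a single read. On that scale the passenger had 56, 36 and 71 reads on small-scale topography, against 116, 250 and 45 reads on smooth disks, and it ranked between 108 and 156 in its library. Its share was 342, 200 and 268 per 1000000 of normalized signal on small-scale topography, against 352, 414 and 231 per 1000000 on smooth disks. The mean was 269.8 ± 71.1 per 1000000 on small-scale topography, against 332 ± 92.8 per 1000000 on smooth disks (SD, n = 3 each, exact permutation test, two-sided, p = 0.4).

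The 5′ extended isomiR was the lowest of the 3 sequences. mdo-miR-21-5p_L+2 had normalized values of 10.3, 35.7 and 7.36 in small-scale topography replicates 1 to 3, against 32.2, 25.6 and 7.23 in smooth replicates 1 to 3. Each group held libraries near 7 and libraries above 25, so its spread within a group was wider than the difference between the group means. These values are 8, 23 and 7 reads on small-scale topography, against 39, 55 and 6 reads on smooth disks. The table seldom lists a sequence below about 5 reads in a library, so the lowest libraries lay just above that limit. The share averaged 67.6 ± 53.1 per 1000000 on small-scale topography, against 80.0 ± 44.7 per 1000000 on smooth disks (SD, n = 3 each, exact permutation test, two-sided, p = 0.9).

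**Figure D2:**
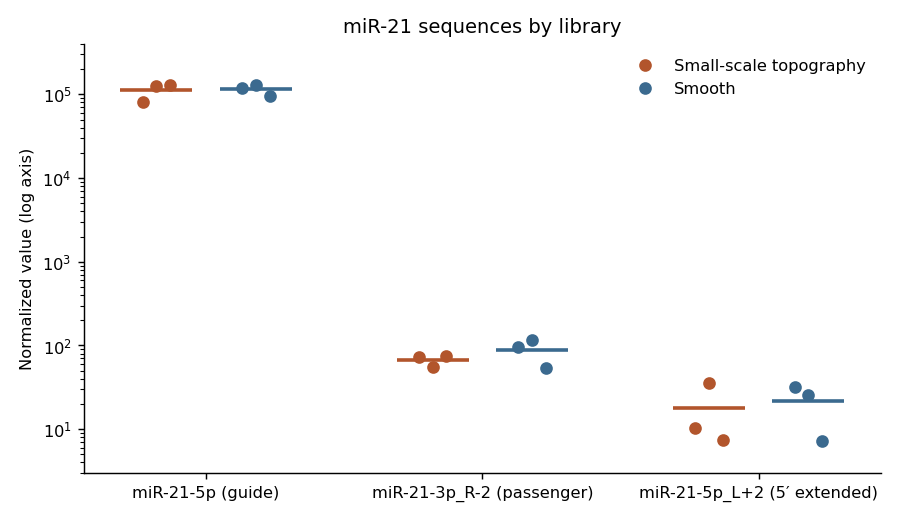
Normalized value (log axis) of the guide, the passenger and the 5′ extended isomiR in each library, with small-scale topography left of smooth; points are libraries and bars the mean of 3. The guide lies between 80533 and 130524, the passenger between 54.2 and 117 and the 5′ extended isomiR between 7.23 and 35.7, and the groups overlap for each.

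Within miR-21, both minor sequences can be set against the guide of the same library, which removes the scaling of the library. For each 10000 of the guide there were 8.94, 4.44 and 5.82 of the passenger in small-scale topography replicates 1 to 3, against 8.11, 8.93 and 5.74 in smooth replicates 1 to 3. Each group had values near 9 and values under 6. The 95% interval of counting error (exact Clopper-Pearson, from the reads) was 7.85 to 10.1 in smooth replicate 2, which lay above that of smooth replicate 3, at 4.19 to 7.68. The interval was 6.75 to 11.6 in small-scale topography replicate 1, above that of small-scale topography replicate 2, at 3.11 to 6.14. Libraries of 1 group thus differed by more than counting error, which is all that these intervals cover, as reads amplified by PCR are not independent molecules. The mean was 6.40 ± 2.31 on small-scale topography, against 7.59 ± 1.66 on smooth disks (SD, n = 3 each, exact permutation test, two-sided, p = 0.7).

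For the 5′ extended isomiR, the ratio was 1.28, 2.83 and 0.574 per 10000 of the guide in small-scale topography replicates 1 to 3, against 2.73, 1.96 and 0.765 in smooth replicates 1 to 3. The highest and the lowest of the 6 values were both on small-scale topography. The interval of small-scale topography replicate 2, 1.80 to 4.25, lay above that of small-scale topography replicate 3, at 0.231 to 1.18. The mean was 1.56 ± 1.16 on small-scale topography, against 1.82 ± 0.989 on smooth disks (SD, n = 3 each, exact permutation test, two-sided, p = 0.8). Between them, the libraries did not keep the passenger and the isomiR in 1 proportion: the passenger was 7.0, 1.57 and 10.1 times the isomiR on small-scale topography, against 2.97, 4.55 and 7.50 times on smooth disks. Of the 2 listed 5p sequences, the guide held between 99.97% and 99.99% in every library.

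**Figure D3:**
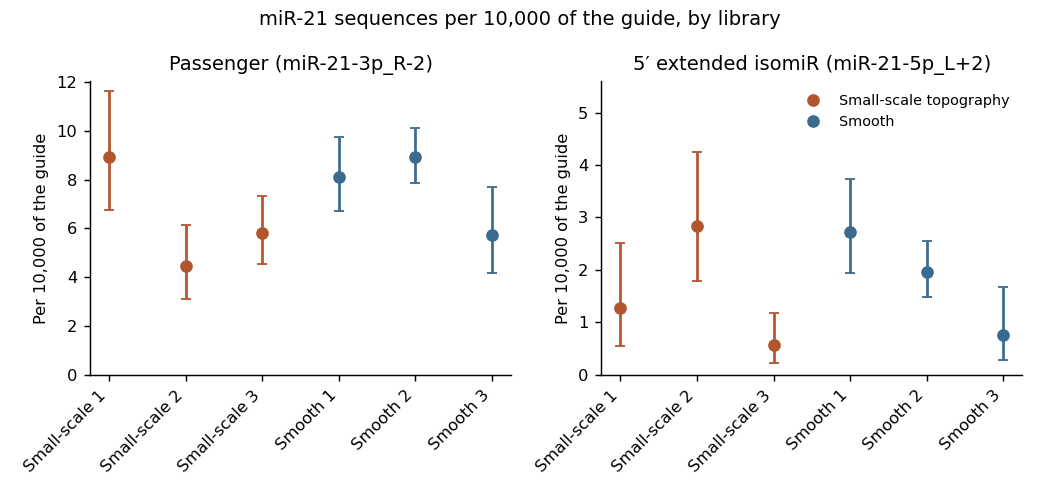
Passenger (left) and 5′ extended isomiR (right) per 10,000 of the guide in each library, small-scale topography before smooth; bars are exact 95% intervals of counting error. Passenger ratios run from 4.44 to 8.94 and isomiR ratios from 0.574 to 2.83, with low and high libraries in each group.

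The question of the study, whether the disk changes the content of the exosomes, was put to each sequence with limma on log2(value + 1), fitted to all 536 distinct sequences with a sum of 20 or more over the libraries. All 3 miR-21 sequences passed this filter. A positive log2 fold change means more on small-scale topography. For the guide the log2 fold change was -0.05 (standard error 0.36), with a 95% interval of the fold from 0.581 to 1.60 (adjusted p = 0.981 from limma). The data thus do not exclude a difference of that size in either direction. For the passenger it was -0.33 (standard error 0.44), with a fold between 0.427 and 1.48 (adjusted p = 0.837 from limma). For the 5′ extended isomiR it was -0.36 (standard error 0.91), with a fold between 0.215 and 2.83 (adjusted p = 0.943 from limma). With 1 library left out the guide was at 0.17 without small-scale topography replicate 1 and at 0.05 without smooth replicate 2, and the isomiR at 0.071 without small-scale topography replicate 3 and at 0.03 without smooth replicate 1, so neither kept its sign, whereas the passenger was below 0 in every fit.

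Thus 0 of the 3 sequences had an adjusted p under 0.05 and 0 had an unadjusted p under 0.05, where limma called 0 of 536 sequences, or 0%, at the adjusted threshold and 12, or 2.24%, at the unadjusted one (1.68% lower and 0.56% higher on small-scale topography). The log2 fold change was below 0 for 3 of 3, as it was for 49.4% of all sequences tested and for 180 of the 305 with a microRNA name. For 0 of the 3 did the groups not overlap, against 6.9% of all sequences tested. The guide stands alone at the highest level, so its standard error rests on the end of the mean-variance trend, and in the other fits to all 6 libraries it ranged from 0.05 to 0.47.

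**Figure D4:**
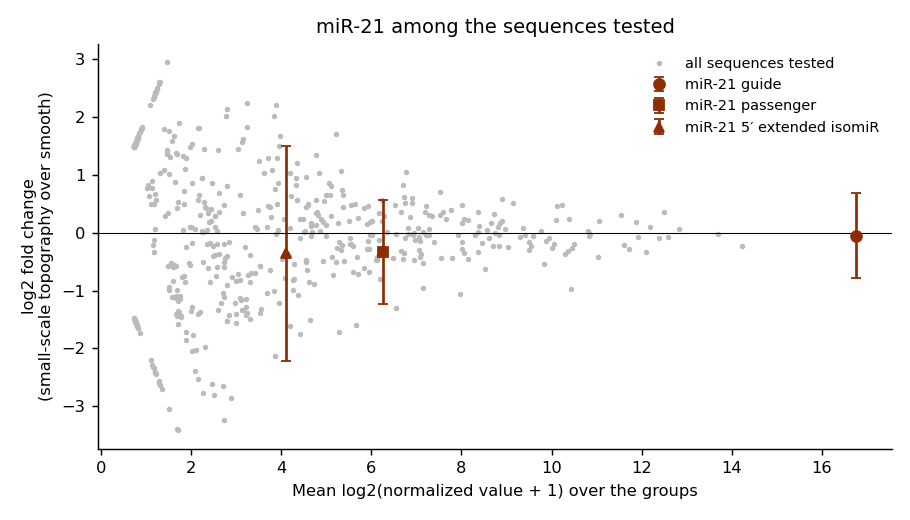
Log2 fold change of small-scale topography over smooth (vertical axis) against the mean of log2(normalized value + 1) for all 536 sequences tested, with the 3 miR-21 sequences in dark red and their 95% intervals from limma. The guide stands alone at the right at -0.05, and all 3 intervals include 0.

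How many isomiRs a microRNA has cannot be read from this table, because among exact matches it lists mostly a single sequence per arm. Placed by exact match on the mouse hairpins of RefSeq, 259 distinct sequences were found in a hairpin, and 238 mature arms held at least 1 of them. Of these arms, 232 held exactly 1 sequence, 6 held more, and no arm held more than 4. Sequences with a changed base are not placed in this way, so these counts can understate the listed sequences per arm. The arm of miR-21a-5p held the guide alone, as the 5′ extended isomiR has no exact match. Among the 30 most abundant placed sequences, 29 began at the 5′ base of the reference and 17 had both ends of the reference, as the guide had. The passenger, which lacks 2 bases at its 3′ end, began at the reference base too. Reads of other miR-21 isomiRs may be counted within these rows or be left out of the table, and the sources used here do not say which.

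The ratio of the arms could be compared over 48 mouse hairpins with both arms listed, each distinct pair of sequences counted once. Hairpins with no exact match for the minor arm, such as that of miR-25-3p, have no ratio. They stand outside the ranks and the median given here. Summed over the 6 libraries, the Mir21a passenger was 6.92 per 10000 of the guide, the fifth lowest ratio of the minor to the major arm, where the median was 452 per 10000. The 4 hairpins with a lower ratio were those of let-7i, miR-20a, miR-27b and miR-210, whose minor arms were listed in 1 to 4 libraries. Among the 11 hairpins whose minor arm was listed in all 6 libraries, Mir21a had the lowest ratio, and the next was Mir27a at 146 per 10000. By level rather than by ratio, the Mir21a passenger was the seventh highest minor arm, with a mean normalized value of 78.2, against a median of 5.28. As low values are not listed, the smallest ratio that a hairpin can show falls as its major arm rises, and Mir21a has the highest major arm of all.

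**Figure D5:**
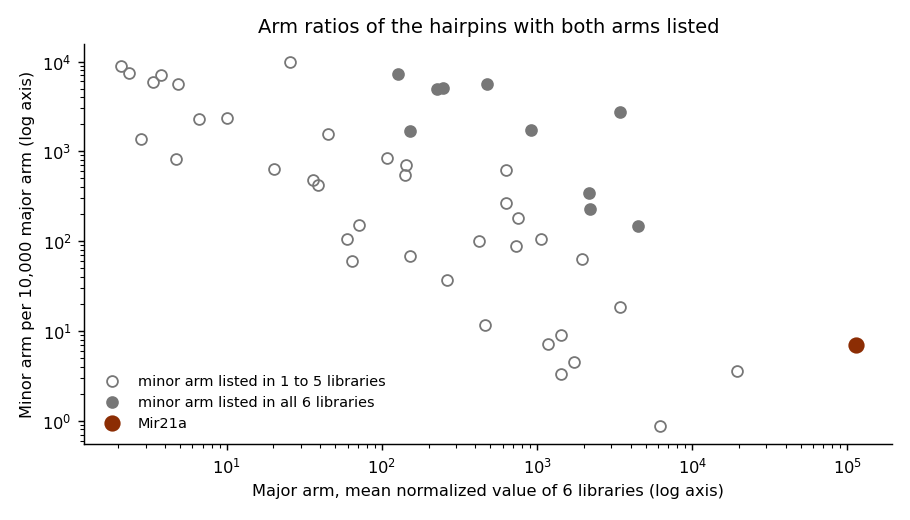
Minor arm per 10,000 of the major arm (log axis) against the mean normalized value of the major arm (log axis) for 48 mouse hairpins; filled points have the minor arm listed in all 6 libraries. Mir21a, in dark red, stands at 6.92 per 10,000 with the highest major arm.

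A candidate without a microRNA name overlapped the edge of the same hairpin. PC-5p-89713_28 shared 17 bases in a row with the Mir21a hairpin and was the only other listed sequence to share 12 or more. It is printed with the bases inside the annotated hairpin in capitals.
PC-5p-89713_28: gcTGTACCACCTTGTCGGA
Its 19 bases matched a transcript of Vmp1 and of no other annotated gene. They lie at positions 86584142 to 86584160 of the minus strand of chromosome 11 (GRCm38), so that the last base of the candidate is directly followed by the first base of the guide. RNAs from this place, next to a mature microRNA, are known as microRNA-offset RNAs. Whether the candidate is such an RNA or a piece of the Vmp1 transcript was not tested. The candidate was listed at 0 in the 3 small-scale topography libraries, against 0, 13.05 and 0 in smooth replicates 1 to 3. The value in smooth replicate 2, the deepest library, is 28 reads, or 0.9998 per 10000 of the guide. At the same ratio the other 5 libraries would hold 6.26 to 14.3 reads, the lowest of them only a little above the limit of about 5. This ratio rests on the 28 reads of 1 library. The part of depth and counting error in the values of 0 was not tested, and no comparison was made.

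The sequences whose pattern over the 6 libraries was most like that of the guide were sought among 94 other named sequences that all libraries listed with a mean of at least 100. By Pearson's r of log2(value + 1), given as a description over the 6 libraries, they were miR-93-5p (0.95), miR-25-3p (0.92), miR-17-5p (0.90), miR-99b-5p (0.90) and miR-106b-3p_R-1 (0.84), where the median was 0.33 and the lowest -0.77. miR-93-5p, miR-25-3p and miR-106b-3p are made from the same primary transcript, in an intron of Mcm7. miR-93-5p had 1076, 2733 and 2096 in small-scale topography replicates 1 to 3, against 2043, 2230 and 1450 in smooth replicates 1 to 3. Its lowest libraries, small-scale topography replicate 1 and smooth replicate 3, were those of the guide. The normalized total of the library, of which the guide is the largest part, moved with the guide in the same way (r = 0.996 on the log2 scale over the 6 libraries, as a description). On shares of the total every r was lower, at 0.86 for miR-93-5p, 0.77 for miR-17-5p, 0.62 for miR-25-3p, 0.49 for miR-99b-5p and 0.45 for miR-106b-3p_R-1.

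The transcription factors that drive miR-21 also drive other microRNAs, and a list of 13 names of microRNAs induced by STAT3, AP-1, NF-κB or Toll-like receptors was set beside it. Of its names 11 were listed, and 10 sequences could be tested, with miR-146a-5p present both as rno-miR-146a-5p and as dno-miR-146a-5p. None passed the adjusted threshold in either direction in limma. At an unadjusted p under 0.05, 0 of the 10 were higher and 3 lower on small-scale topography, where 0.56% of all 536 sequences were higher and 1.68% lower. The 3 are among the 9 sequences lower over the whole table, and all 9 have a microRNA name. The median log2 fold change of the list was -0.58, against 0.01 for all 536 sequences and -0.10 for the 305 with a microRNA name. The list was chosen with earlier results of these data known, and some of its names were already known to be lower in these libraries. The part of this choice in the low median and in the 3 lower sequences was not tested. The 3 were miR-146b-5p, miR-146a-5p and miR-210-3p, at -1.31, -1.06 and -0.98. For miR-210-3p the groups overlapped, unlike those of rno-miR-146a-5p and miR-146b-5p. Its values were 693, 1221 and 1145 in small-scale topography replicates 1 to 3, against 2630, 4049 and 697 in smooth replicates 1 to 3. miR-146a-5p and miR-146b-5p dampen Toll-like receptor signaling through IRAK1 and TRAF6, and miR-210-3p is induced by hypoxia. The guide, at -0.05, lay nearer to 0 than all of the 10 but miR-181b-5p_R-2, at 0.01. miR-155-5p, which inflammatory signals induce in macrophages, was at 0.10 with a standard error of 0.81.

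Markers were read to check the source of the RNA. Of 9 names of myeloid and macrophage microRNAs, 5 were listed, in 6 sequences. Some of the 9 are alternative names of the same microRNA, such as miR-142-5p and miR-142a-5p, so fewer microRNAs than names were sought. Together the 6 sequences held 0.0967% to 0.202% of a small-scale topography library and 0.19999% to 0.267% of a smooth library. The largest of them in all libraries but small-scale topography replicate 3 was rno-miR-146a-5p, which is also on the list of inducible microRNAs. It had 282, 197 and 91.4 in small-scale topography replicates 1 to 3, against 493, 315 and 300 in smooth replicates 1 to 3. The hematopoietic miR-142-5p_L+2R-2 was listed in all 6 libraries, and the myeloid miR-223-3p was listed at 0 in 2 small-scale topography libraries. The liver microRNAs miR-122-5p_R-1 and miR-192-5p_R-1 held 1.15% to 1.63% on small-scale topography, against 0.821% to 1.63% on smooth disks, more than the myeloid names in every library. Of the erythroid list 1 of 5 names was listed, and of the muscle list 1 of 4 and only in smooth replicate 2. Some erythroid entries are alternative names too, such as miR-486-5p and miR-486a-5p. A sequence named miR-486_R-1, without an arm, was listed but not counted there. Its mean log2(value + 1) was 4.95 on small-scale topography, against 3.74 on smooth disks. Of the mesenchymal list 6 of 7 names were listed, with 0.319% to 0.456% on small-scale topography, against 0.378% to 0.471% on smooth disks. miR-21 is made in liver and mesenchymal cells too, so its own source cannot be told from its sequence, and the part of other sources in its level was not tested. On the scale of reads the libraries hold 163845 to 264828 reads on small-scale topography, against 194510 to 604081 on smooth disks.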

How the data were processed

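The 6 libraries hold small RNA from exosomes, 3 for each kind of disk. The authors prepared them with the TruSeq small RNA kit and ran ACGT101-miR, which trims adapters, discards reads outside 18 to 26 nt and reads of mRNA, repeats and other RNA families, then assigns names and normalizes. The deposited values are this normalized signal, not counts, and neither its scaling factor nor the miRBase release or build is given in the sources used here.

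Rows with the same sequence and values counted once. The value of 1 read was taken as the largest step of which at least 85% of a library's values are whole multiples within 0.02 reads (87.9% to 92.7%; 98.4% to 99.5% with steps of 0.5 read), so no test for counts was run. Sequences were tested with limma (mean-variance trend) on log2(value + 1), no covariate, Benjamini-Hochberg over 536 sequences with a sum of at least 20, threshold 0.05. Single values were compared by two-sided exact permutation tests, where no p under 0.1 is possible. Arms were assigned by exact match in RefSeq hairpins over at least 15 bases of the mature sequence. Named were all miR-21 sequences, other sequences of the hairpin, the 10 most abundant, sequences with the same seed and the 5 of most similar pattern; PC-5p-89713_28 and the other sequences named were chosen after values were seen. Members and lists were chosen with earlier results of these data known. Alternatives were other pseudocounts, filters, scalings and denominators, a replicate block, isomiRs summed by name, and each library left out. As a check of the code, the fit was run on simulated, independent normal log2 values with known changes. This does not test sequences with many zeros. Target genes were not analysed here. limma 3.58.1 ran in R 4.3.3. Matplotlib 3.10.9, SciPy 1.17.1, pandas 2.3.3 and NumPy 2.4.6 ran in Python 3.11.15.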

Additional observations from a re-analysis of the deposited data

How the results depend on the processing

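No miR-21 sequence passed the adjusted threshold under any alternative run (adjusted p from limma 0.494 to 0.9997 for the guide, 0.644 to 0.9997 for the passenger and 0.677 to 0.9997 for the 5′ extended isomiR). The passenger stayed lower on small-scale topography in every fit, in its share and against summed 5p. The sign of the guide and of the 5′ extended isomiR did not hold. Scaled to named sequences other than miR-21, which moved the median of all sequences by 0.10, the guide was at 0.040, or -0.07 relative to the median of 0.11. Over named sequences only, the difference in share was 0.71 percentage points for the guide and 0.70 for all members, and over sequences in a mouse hairpin 1.16 and 1.15, against -0.26 each over all sequences (exact permutation test, p = 0.6 to 0.9).

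With 1 library left out, the log2 fold change of the guide was -0.19 to 0.17 (above 0 without small-scale topography replicate 1 and without smooth replicate 2), of the passenger -0.65 to -0.10, and of the 5′ extended isomiR -0.997 to 0.071 (above 0 without small-scale topography replicate 3 and without smooth replicate 1). The difference in share was -1.77 to 2.17 percentage points for the guide and -1.79 to 2.16 for all members, -113 to -21.7 per 1000000 for the passenger and -42.4 to 8.12 per 1000000 for the 5′ extended isomiR. Per 10000 of summed 5p it was -2.46 to -0.21 for the passenger and -0.89 to 0.24 for the isomiR. Over all sequences 0 to 1 passed, the 1 being miR-210-3p without smooth replicate 3 (adjusted p = 0.0212 from limma), with 6 to 30 at an unadjusted p under 0.05, and 7 to 36 in the other alternatives.

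The replicate numbers are not stated to pair the libraries. Deviations of same-numbered libraries correlated at -0.03, 0.10 and 0.02, and small-scale topography replicate 1 went best with smooth replicate 3. With the replicate block 0 sequences passed, with 18 at an unadjusted p under 0.05 against 12, and the guide kept -0.05 with a standard error of 0.47. The isomiR fell out with a sum of at least 120 or when summed by name, and the reference form of the passenger was not listed, so ratios over reference sequences only could not be had. The isomiR, at 6 to 55 reads, is limited by depth.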
